A study of Homo sapiens with 4 samples.

Results

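The genes described here encode the subunits of hypoxia-inducible factor (HIF) and the proteins that sense oxygen for it. They are the α subunits HIF1A and EPAS1, the β subunits ARNT and ARNT2, the prolyl hydroxylases EGLN1, EGLN2 and EGLN3, the asparaginyl hydroxylase HIF1AN, the ubiquitin ligase component VHL and the coactivator competitor CITED2. Their probes were found by matching the RefSeq accession of each spot to a gene symbol, which gave 14 of the 41000 probes of the array. All 10 genes had a probe. HIF1A, ARNT2, HIF1AN, VHL, EGLN2, EGLN3 and CITED2 had 1 probe each, EPAS1 and ARNT had 2 and EGLN1 had 3.

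RNA was taken from OVSAYO cells, a line from a human clear cell carcinoma of the ovary, and was hybridised to 4 one-colour Agilent whole genome arrays on 1 slide. NS-si cells carried the Ambion Silencer negative control siRNA and no other treatment, and Sp1-si cells carried the Dharmacon SMRT pool against Sp1, a transcription factor that binds GC-rich promoters. NS-si → CoCl2 and Sp1-si → CoCl2 cells were in addition exposed to 0.5 mM CoCl2, a hypoxia mimic, for 4 h. All 4 cultures were transfected with Lipofectamine 2000, and the labels give 40 h of culture between transfection and the change of medium. The study's text gives a shorter time for this step. Each condition is 1 culture of 1 cell line on 1 array, so no value has a replicate and no test between conditions could be run. The small number of arrays sets the precision. In RNA from whole cultures, fewer cells of a kind and less RNA per cell cannot be told apart.

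In cells with oxygen, prolyl hydroxylases modify the HIF α subunits, VHL binds the modified protein, and the α subunit is ubiquitinated and degraded. HIF1AN hydroxylates an asparagine in the α subunit and so blocks its contact with the coactivators p300 and CBP, and CITED2 competes for the same contact. Cobalt and low oxygen both hinder the hydroxylases, and the stabilised α subunit pairs with ARNT and binds hypoxia response elements (HREs) with an RCGTG core. This control acts mostly on protein, which an array does not see. EGLN1, EGLN3 and CITED2 are also known as HIF target genes, through which the pathway feeds back on itself.

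The regions before the start sites are shown for 4 genes, because EGLN1 and EGLN3 had the largest CoCl2 ratios of the 10 genes and HIF1A and EPAS1, the α subunits, had opposite ratios between Sp1-si and NS-si cells. Each is the 250 bases before an annotated start in RefSeq, build GRCh38.p14, written 5′ to 3′ on the strand of the gene. Capitals mark every match, on either strand, to an HRE core (ACGTG or GCGTG, which read CACGT or CACGC on the other strand) or to the GC box bound by Sp1 (GGGCGG, or CCGCCC on the other strand). Overlapping matches run together.
EGLN1, chr1:231422288-231422537, minus strand: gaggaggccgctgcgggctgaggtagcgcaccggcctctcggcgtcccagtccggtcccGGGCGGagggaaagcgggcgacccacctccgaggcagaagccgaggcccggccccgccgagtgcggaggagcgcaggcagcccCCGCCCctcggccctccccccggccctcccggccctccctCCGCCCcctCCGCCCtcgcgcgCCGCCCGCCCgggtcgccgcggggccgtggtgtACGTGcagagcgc
EGLN3, chr14:33951075-33951324, minus strand: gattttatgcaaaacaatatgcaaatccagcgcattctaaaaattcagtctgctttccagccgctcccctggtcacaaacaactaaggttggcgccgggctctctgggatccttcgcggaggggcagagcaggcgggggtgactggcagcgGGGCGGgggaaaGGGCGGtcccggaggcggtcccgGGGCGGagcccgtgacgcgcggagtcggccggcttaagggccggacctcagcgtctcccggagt
HIF1A, chr14:61695263-61695512, plus strand: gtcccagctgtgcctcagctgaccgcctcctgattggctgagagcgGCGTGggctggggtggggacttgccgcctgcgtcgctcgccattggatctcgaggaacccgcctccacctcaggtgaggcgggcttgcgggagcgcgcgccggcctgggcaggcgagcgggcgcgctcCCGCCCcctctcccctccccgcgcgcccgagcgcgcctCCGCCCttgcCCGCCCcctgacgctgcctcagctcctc
EPAS1, chr2:46297157-46297406, plus strand: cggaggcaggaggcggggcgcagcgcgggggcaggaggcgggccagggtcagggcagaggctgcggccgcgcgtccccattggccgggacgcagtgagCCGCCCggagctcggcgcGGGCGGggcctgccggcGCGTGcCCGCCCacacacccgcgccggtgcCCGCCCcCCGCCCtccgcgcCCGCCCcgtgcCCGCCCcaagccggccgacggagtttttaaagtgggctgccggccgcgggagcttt
The EGLN1 window held 1 ACGTG, 13 bases before the start, and 6 GC boxes. The EGLN3 window held no HRE core and 3 GC boxes. The HIF1A window held 1 GCGTG and 3 GC boxes, and the EPAS1 window held 1 GCGTG and 7 GC boxes. A match is a description of letters and not evidence of binding, and no match in 250 bases says nothing of sites elsewhere.

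The RefSeq table held such windows for 8 of the 10 genes, 12 windows in all, with ARNT2 and VHL not among them. ACGTG was found in 3 of the 12 windows, 1 each of EGLN1, EGLN2 and CITED2, and 18.5% of the 35116 promoter windows of the table hold it. In EGLN2 and CITED2 the match was the palindrome CACGTG, which counts once on each strand. GCGTG was found in 4 windows, 1 each of HIF1A and EPAS1 and 2 of CITED2, against 32.2% of all windows, and either core in 7 windows, against 43.2%. A GC box was found in 9 of the 12 windows, from EGLN1, EGLN2, EGLN3, EPAS1, HIF1A and CITED2, against 42.6% of all windows. Windows of 1 gene can overlap, as 2 of the CITED2 windows do, and the single GC box of each of these is the same site. The windows with a GC box were 60% to 81.2% G and C, and the composition of all windows was not taken. The windows of ARNT and HIF1AN held none of the motifs, nor did a second HIF1A window at a later start.

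SP1, the targeted gene, was low in both Sp1-si cultures. Its probe with 10 spots had a log2 ratio of Sp1-si to NS-si of -3.77 without and -3.87 with CoCl2. All 10 epithelial and clear cell carcinoma markers were well above background on all 4 arrays. Of 9 immune, endothelial and stromal markers with a probe, PTPRC, PECAM1 and COL3A1 did not pass background on a single array, whereas CD3E, CD14, VWF, DCN, LUM and ACTA2 were well above it on all 4. The summed signal of the 9 was lower in both Sp1-si cultures (1050.1 and 1104) than in both NS-si cultures (1795 and 1672), mostly through LUM and ACTA2. NAPSA and CDH1, an epithelial adhesion protein, were lower in Sp1-si cells as well. Their log2 ratios were -2.33 and -1.55 without CoCl2 and -2.39 and -1.73 with it. The part of these shifts in the Sp1 ratios given next was not tested.

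Levels are given as scaled signal, the intensity of a probe after each array was brought to the same 75th percentile. Signals of different probes depend on the probe and are not compared. A ratio is a log2 difference between 2 arrays. Its error, called the SD between spots, is the SD of log2 ratios taken spot by spot at the same position on the arrays compared. Spread that the arrays share at a position cancels in it. It was taken from its own 10 spots for HIF1A and from 10-spot probes of like brightness for the probes with 1 spot. This error covers the slide and not the culture. Neighbouring levels less than 2 of these SDs apart are described as not separated. All 14 probes were well above background on all 4 arrays, no spot was saturated and none was an outlier.

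**Figure D1:**
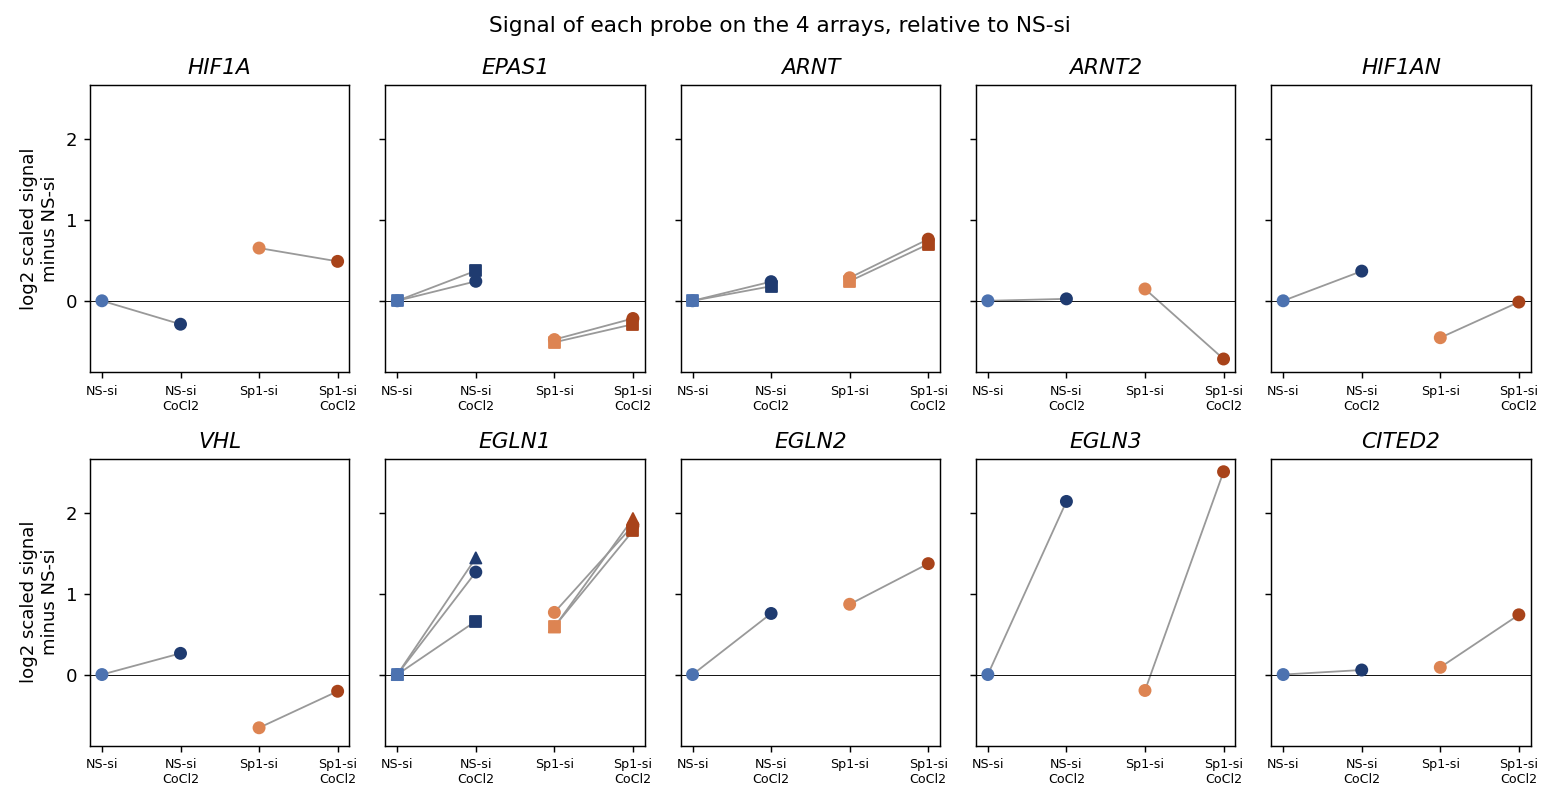
Log2 scaled signal of each probe on the 4 arrays, relative to its NS-si value (y axis), by condition (x axis), with 1 panel per gene. Lines join cells of the same siRNA without and with CoCl2, and symbols mark different probes of a gene. EGLN3 stands highest in both CoCl2 cultures, HIF1A is higher in both Sp1-si cultures, and EPAS1, VHL and HIF1AN are lower with Sp1 siRNA at either CoCl2 setting.

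HIF1A, the oxygen-regulated α subunit found in most cells, had a scaled signal of 4726 in NS-si and 3865 in NS-si → CoCl2 cells, and 7433 in Sp1-si and 6630 in Sp1-si → CoCl2 cells (10 spots on each array). The 4 levels were all separated by more than 2 SDs between spots, with both Sp1-si cultures above both NS-si cultures. Single spots did not overlap between the siRNAs, the lowest of the Sp1-si arrays being 6229 and the highest of the NS-si arrays 5126. They did overlap between Sp1-si (7047 to 8088) and Sp1-si → CoCl2 (6229 to 7162). The 10 spots of an array share 1 RNA and are not replicates of a condition. The log2 ratio of Sp1-si to NS-si was 0.65 ± 0.03 without CoCl2 and 0.78 ± 0.04 with it (SD between spots). The CoCl2 ratio of HIF1A in NS-si cells was -0.29 ± 0.03, and 23.0% of the measured probes had a ratio below it. In Sp1-si cells the ratio was -0.16 ± 0.03, which turned to 0.06 without scaling between arrays.

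EPAS1 encodes HIF-2α, an α subunit known for its role in endothelium and kidney. Its brighter probe read 29063 in NS-si and 34358 in NS-si → CoCl2 cells, and 20835 in Sp1-si and 24966 in Sp1-si → CoCl2 cells. The other probe read 139, 180.1, 97.4 and 114 in the same order. Both probes put Sp1-si lowest and NS-si → CoCl2 highest, with all neighbours separated. The log2 ratio of Sp1-si to NS-si was -0.48 ± 0.02 without CoCl2 and -0.46 ± 0.02 with it for the brighter probe, and -0.51 ± 0.07 and -0.66 ± 0.07 for the other. The α subunits thus stood on opposite sides of 0 in both comparisons between the siRNAs. The CoCl2 ratio of EPAS1 in NS-si cells was 0.24 ± 0.03 and 0.37 ± 0.07, and that of the brighter probe was 0.12 with quantile normalization and 0.02 without scaling, which is within its SD of 0. In Sp1-si cells the CoCl2 ratios of EPAS1 were 0.26 ± 0.03 and 0.22 ± 0.07.

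ARNT is the β subunit shared by the HIF α proteins and the aryl hydrocarbon receptor. Its 2 probes read 172 and 85.4 in NS-si, 203 and 96.8 in NS-si → CoCl2, 210.1 and 101 in Sp1-si and 293 and 139 in Sp1-si → CoCl2 cells. Both probes put NS-si lowest and Sp1-si → CoCl2 highest, and Sp1-si and NS-si → CoCl2 were not separated. The log2 CoCl2 ratio was 0.24 ± 0.06 and 0.18 ± 0.07 in NS-si cells, the second turning to -0.05 without scaling, and 0.48 ± 0.06 and 0.46 ± 0.08 in Sp1-si cells. The log2 ratio of Sp1-si to NS-si was 0.29 and 0.24 without CoCl2 and 0.53 and 0.52 with it.

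ARNT2, a β subunit best known from neurons and kidney, was dim. It read 40.9 in NS-si and 41.6 in NS-si → CoCl2 cells, and 45.3 in Sp1-si and 24.8 in Sp1-si → CoCl2 cells. The Sp1-si → CoCl2 culture was low and the other 3 were not separated. Its CoCl2 ratio in Sp1-si cells, -0.87 ± 0.11, was the lowest of the 14 probes, and 7.7% of all measured probes were below it. Against NS-si → CoCl2 cells the ratio was -0.74 ± 0.13. With a normexp correction of the median signals and an offset of 50, which is above the signal of this probe, the CoCl2 ratio was -0.40.

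EGLN3 (PHD3), a prolyl hydroxylase known for its strong response to low oxygen, had the largest CoCl2 ratios of the 10 genes. It read 445.5 in NS-si and 1970.1 in NS-si → CoCl2 cells, and 388.5 in Sp1-si and 2543 in Sp1-si → CoCl2 cells. Both CoCl2 cultures were far above both untreated cultures, by 4.42-fold in NS-si cells and 6.54-fold in Sp1-si cells. On the log2 scale these ratios were 2.14 ± 0.04 and 2.71 ± 0.03, above 99.6% and 99.8% of all measured probes. Against NS-si, the EGLN3 signal of Sp1-si cells was lower without CoCl2 (-0.20 ± 0.03) and higher with it (0.37 ± 0.04). The difference of the CoCl2 ratios, Sp1-si minus NS-si, was 0.57 ± 0.05, and 94.0% of all measured probes had a lower one.

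EGLN1 (PHD2), the main prolyl hydroxylase of HIF1A in cells with oxygen, was highest in Sp1-si → CoCl2 cells by all 3 of its probes. The probe with the brightest mean read 5517 in NS-si and 13301 in NS-si → CoCl2 cells, and 9407 in Sp1-si and 19819 in Sp1-si → CoCl2 cells. The other probes read 5999, 9490, 9057 and 20619, and 638, 1738, 960.3 and 2436, in that order. All 3 placed the cultures in the same order, with both CoCl2 cultures above both untreated cultures and each neighbour separated. For the probe A_23_P34710 the place of NS-si → CoCl2 above Sp1-si turned under other scalings, to 0.44 against 0.54 without scaling, 0.57 against 0.64 with quantile normalization and 0.59 against 0.63 in the authors' value table, as log2 ratios to NS-si. The log2 CoCl2 ratios of the 3 probes were 1.27, 0.66 and 1.44 in NS-si cells and 1.08, 1.19 and 1.34 in Sp1-si cells, each with an SD of at most 0.04. The probes disagreed in NS-si → CoCl2 cells, where A_23_P34710 was low, and this carried into the difference of the CoCl2 ratios, which was -0.19, 0.53 and -0.10. The negative values turned to 0.26 and 0.35 without scaling, so the 3 probes give no common answer on whether the CoCl2 ratio of EGLN1 depended on Sp1 siRNA. Without CoCl2, they did share a direction for Sp1-si against NS-si, with log2 ratios of 0.77, 0.59 and 0.59, and with CoCl2 these were 0.58, 1.12 and 0.49.

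EGLN2 (PHD1), a prolyl hydroxylase not usually counted among HIF targets, read 740.4 in NS-si and 1251 in NS-si → CoCl2 cells, and 1354 in Sp1-si and 1919 in Sp1-si → CoCl2 cells. NS-si was low, Sp1-si → CoCl2 was high, and all 4 were separated. Its log2 ratio of Sp1-si to NS-si, 0.87 ± 0.03 without CoCl2, was the highest of the 14 probes in that comparison, and it was 0.62 ± 0.03 with CoCl2. The CoCl2 ratio was 0.76 ± 0.04 with NS-si and 0.50 ± 0.03 with Sp1-si.

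HIF1AN (FIH) had its highest signal in NS-si → CoCl2 cells. It read 172 in NS-si and 222 in NS-si → CoCl2 cells, and 126 in Sp1-si and 170.5 in Sp1-si → CoCl2 cells, and NS-si and Sp1-si → CoCl2 were not separated. The log2 CoCl2 ratio was 0.37 ± 0.07 with NS-si and 0.44 ± 0.06 with Sp1-si. The ratio of Sp1-si to NS-si was -0.46 ± 0.06 without CoCl2 and -0.38 ± 0.06 with it, the second turning to 0.01 without scaling.

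VHL, the part of the ligase that recognises the hydroxylated α subunit, was lower in Sp1-si cells. It read 539 in NS-si and 646 in NS-si → CoCl2 cells, and 341 in Sp1-si and 467 in Sp1-si → CoCl2 cells, all 4 separated, with both Sp1-si cultures below both NS-si cultures. The log2 ratio of Sp1-si to NS-si was -0.66 ± 0.04 without CoCl2, the most negative of the 14 probes, and 11.1% of all measured probes were below it. With CoCl2 it was -0.47 ± 0.04. The CoCl2 ratio was 0.26 ± 0.04 with NS-si and 0.45 ± 0.04 with Sp1-si. Without scaling the ratio with NS-si came to 0.04, which is within its SD of 0.

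CITED2 was highest in Sp1-si → CoCl2 cells. It read 1953 in NS-si and 2031 in NS-si → CoCl2 cells, and 2078 in Sp1-si and 3263 in Sp1-si → CoCl2 cells, so that Sp1-si → CoCl2 stood apart and neighbours among the other 3 were not separated, though Sp1-si was 0.09 ± 0.03 above NS-si on the log2 scale. The log2 CoCl2 ratio was 0.65 ± 0.03 in Sp1-si cells and 0.06 ± 0.03 in NS-si cells, where it turned negative without scaling (-0.17) and with the authors' value table (-0.02). The difference of the CoCl2 ratios was 0.59 ± 0.04, and 94.7% of all measured probes had a lower one.

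**Figure D2:**
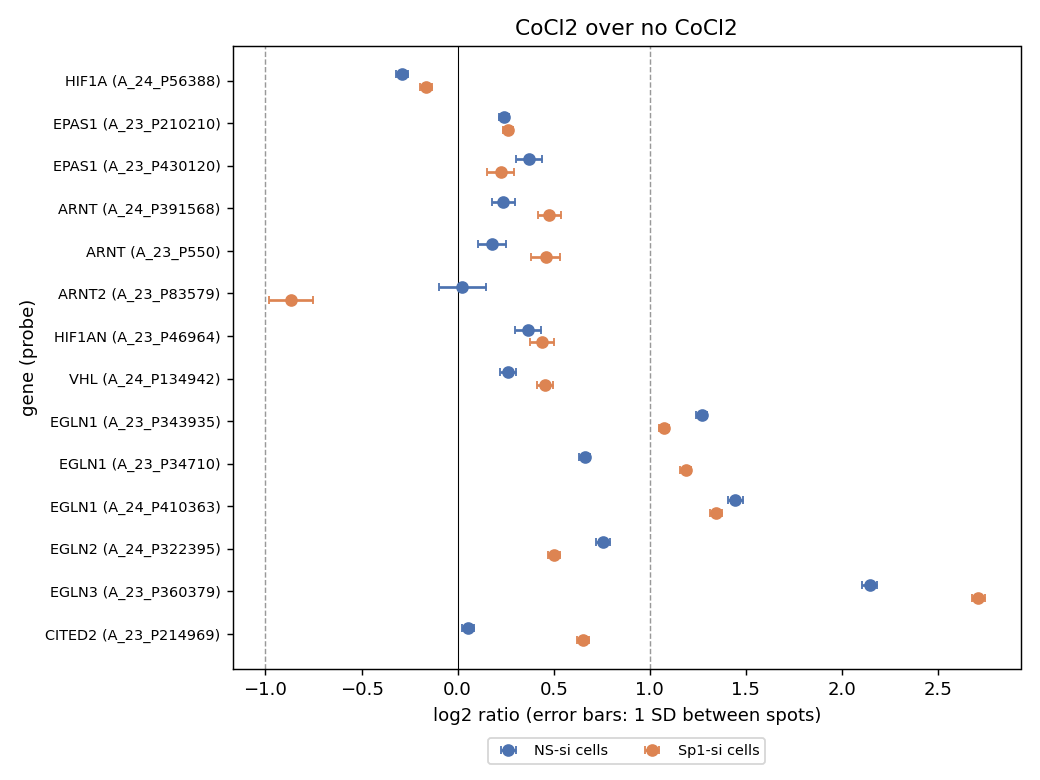
Log2 CoCl2 ratio (x axis) of each of the 14 probes (y axis) in NS-si cells (blue) and Sp1-si cells (orange), with error bars of 1 SD between spots and dashed lines at -1 and 1. EGLN3 lies at 2.14 and 2.71, and the 3 EGLN1 probes lie between 0.66 and 1.44.

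Counted over the probes, 3 of 14 (21.4%) had a log2 CoCl2 ratio of at least 1 in NS-si cells, against 4.06% of all measured probes, and they were the EGLN3 probe and 2 EGLN1 probes. None was at or below -1, against 3.83% of all probes. In Sp1-si cells the EGLN3 probe and all 3 EGLN1 probes passed 1 (28.6%), against 3.47% of all probes, and none was at or below -1, against 5.74%. By gene these were 2 of 10 in both kinds of cell, and the probes of EGLN1 share their transcript. The median over the 14 probes was 0.32 with NS-si and 0.47 with Sp1-si, beside 0.02 and -0.01 over all measured probes.

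Between the siRNAs, no probe reached a log2 ratio of 1 in size without CoCl2, where 5.01% of all measured probes were at or above 1 and 5.38% at or below -1. With CoCl2, 1 probe of EGLN1 (A_23_P34710, 1.12 ± 0.02) passed 1, a share of 7.14% beside 6.08% of all probes, and none was at or below -1, against 9.16%. A share this near the background is no result about these genes. HIF1A, ARNT, EGLN1, EGLN2 and CITED2 had positive ratios with and without CoCl2, CITED2 only 0.09 without it (0.04 when unscaled). EPAS1, HIF1AN and VHL had negative ratios in both, and EGLN3 and ARNT2 had opposite signs. Without scaling, the median of all probes in the comparison with CoCl2 moved from -0.06 to 0.34, HIF1AN turned to 0.01, and the brighter EPAS1 probe and VHL came to -0.06 and -0.07. The comparisons without and with CoCl2 use different arrays, whereas each siRNA ratio shares an array with each CoCl2 ratio.

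**Figure D3:**
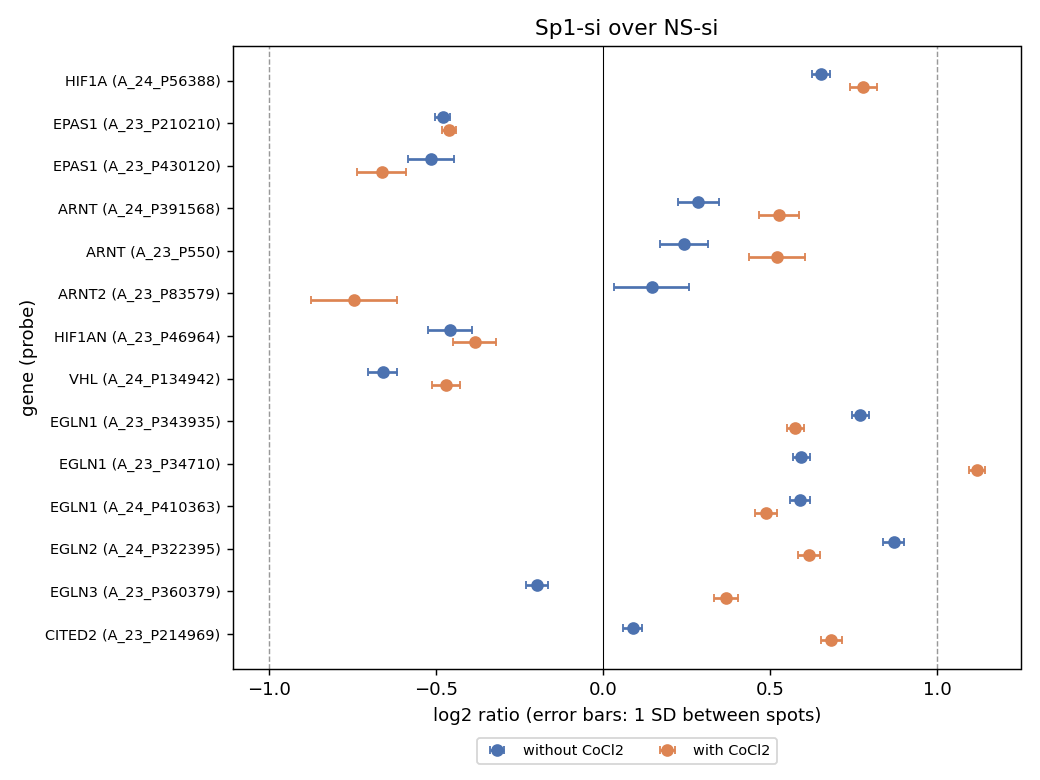
Log2 ratio of Sp1-si to NS-si cells (x axis) for each of the 14 probes (y axis) without CoCl2 (blue) and with CoCl2 (orange), with error bars of 1 SD between spots and dashed lines at -1 and 1. HIF1A lies at 0.65 and 0.78, VHL at -0.66 and -0.47, and 1 EGLN1 probe passes 1.

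For the difference of the CoCl2 ratios, none of the 14 probes passed 1 in size, against 1.05% of all measured probes at or above 1 and 4.87% at or below -1. The values ran from -0.89 ± 0.17 for ARNT2 to 0.59 for CITED2. Without scaling, EGLN3 and CITED2 were past 1, at 1.02 and 1.04, since scaling shifts this difference by 1 amount for every probe. The median of all measured probes was then 0.44, and no share of them past 1 was taken.

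The other genes of the pathway were read from lists of their roles, with 1 probe per gene. The partners of VHL in the ligase, ELOB, ELOC, CUL2, RBX1 and NEDD8, were all 5 well above background on all arrays, and none had a ratio past 1 in size in any comparison. Their median log2 CoCl2 ratio was -0.17 with NS-si and -0.06 with Sp1-si. VHL itself was at 0.26 and 0.45.

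Among 11 other regulators of HIF stability, SIAH2 and WSB1 had CoCl2 ratios past 1 in NS-si cells and SIAH2 in Sp1-si cells. SIAH2, a ligase that targets EGLN2 and EGLN3 for degradation, read 387 in NS-si and 1643 in NS-si → CoCl2 cells, and 314 in Sp1-si and 929 in Sp1-si → CoCl2 cells, log2 CoCl2 ratios of 2.09 and 1.56. WSB1, an adaptor of a ligase that acts on VHL, read 8441, 17419, 7473 and 10416 in that order, with ratios of 1.05 and 0.48. Both were high in the CoCl2 cultures and lower in Sp1-si → CoCl2 than in NS-si → CoCl2 cells. HSP90AA1, a chaperone of HIF1A, was past -1 between Sp1-si → CoCl2 and NS-si → CoCl2 cells by its brightest probe (-1.09), but its other 3 probes gave 0.31, -0.65 and -0.53.

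Of 6 coactivators and CITED relatives, EP300, CREBBP, CITED4 and NCOA1 were well above background on all arrays. EP300 and CREBBP, the coactivators for which CITED2 competes, had log2 CoCl2 ratios of 0.06 and 0.13 with NS-si and 0.02 and 0.08 with Sp1-si. CITED4 read 965.1 in NS-si and 753 in NS-si → CoCl2 cells, and 3050.2 in Sp1-si and 1840.1 in Sp1-si → CoCl2 cells. It was high in both Sp1-si cultures, with log2 ratios to NS-si of 1.66 and 1.29, while its second probe was well above background on 1 array and gave no ratio.

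The other genes of the bHLH-PAS family, to which the HIF subunits belong, numbered 12 on the list, 11 with a probe and 10 well above background on all arrays. HIF3A, the third HIF α subunit, read 106 in NS-si and 122 in NS-si → CoCl2 cells, and 133 in Sp1-si and 151 in Sp1-si → CoCl2 cells, a CoCl2 ratio of 0.20 with NS-si and 0.18 with Sp1-si. NPAS1 was the 1 gene of the list past 1 in the CoCl2 ratios, at 1.46 and 1.65. BMAL2, a clock factor, had a ratio of Sp1-si to NS-si of -1.12 without CoCl2, and SIM2, at 65.6 with NS-si and 131 with Sp1-si, just reached 1, which its dimmer probe at 0.07 did not. NPAS3 had -1.38 with CoCl2 and its other probe -0.65. The 3 antisense transcripts of HIF1A on the list had no probe.

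Genes with known HREs were read as the output of the pathway beside its sensors. Of 15 such genes 14 were well above background on all arrays, CA9 being at background on each. CoCl2 ratios were at least 1 in 12 of 14 in NS-si cells, all but LDHA and DDIT4, and in 13 of 14 in Sp1-si cells, all but SLC2A1. LDHA fell short by its brightest probe (0.78), while its other probes gave 0.97 and 1.07 in NS-si cells. The genes of this list were chosen because HIF is known to act on them, so the count describes the arrays and is not independent of the choice. Their medians were 1.77 and 1.91, and EGLN3 (2.14 and 2.71) was above both and EGLN1 (1.27 and 1.08) below both. VEGFA, the angiogenic growth factor, had 2.34 and 2.86, and ADM, a vasodilating peptide, 2.77 and 3.59. In Sp1-si against NS-si cells without CoCl2, VEGFA and ADM were past -1 (-1.81 and -1.45) and MXI1, a MYC antagonist, past 1 (1.64). With CoCl2 these ratios were -1.29 for VEGFA, -0.63 for ADM and 1.38 for MXI1. PDK1 and ANKRD37 were past 1 in the difference of the CoCl2 ratios, at 1.09 and 1.23, where EGLN3 had 0.57 and CITED2 0.59.

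**Figure D4:**
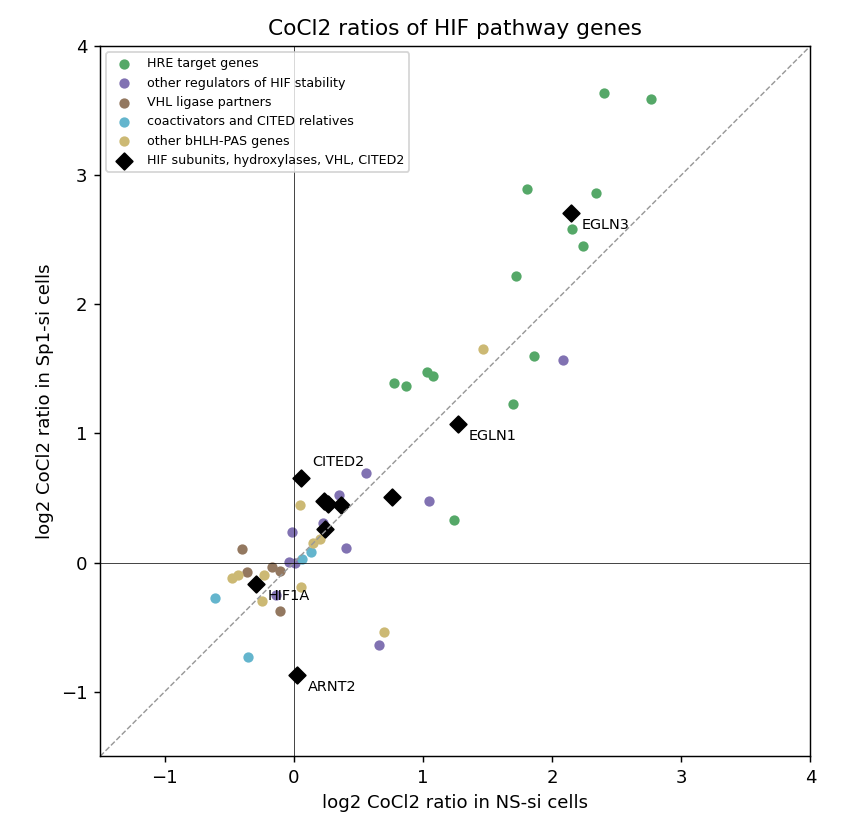
Log2 CoCl2 ratio in NS-si cells (x axis) against that in Sp1-si cells (y axis), 1 point per gene, for the HIF genes (black diamonds) and the other lists of the pathway (coloured), with the dashed line of equal ratios. EGLN3 sits among the HRE target genes, EGLN1 just under the dashed line, and HIF1A and ARNT2 below 0 in Sp1-si cells.

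The genes whose pattern over the 4 arrays was most like that of a hydroxylase were found for the 3 representative probes that spanned at least 1 on the log2 scale, by the root mean square difference of the centred log2 values, among 20926 probes. For EGLN3 they were KDM3A, a histone demethylase, at 0.039, HILPDA, a lipid droplet protein, at 0.088, and STBD1, a glycogen-binding protein, at 0.10. For EGLN1 they were TNFAIP8 at 0.026, SS18 at 0.042 and COX19 at 0.049. These are neighbours of the EGLN1 probe A_23_P343935 only. The EGLN1 probe A_23_P34710 had another pattern, with a log2 CoCl2 ratio in NS-si cells of 0.66 against 1.27. For EGLN2 they were ARVCF at 0.036, BRWD1 at 0.042 and TBC1D3F at 0.047, the last a member of a family of near-identical copies whose transcripts may share the probe. Each neighbour was found by 1 probe. KDM3A, SS18, COX19, ARVCF and BRWD1 have other probes, whose distances are not given. With 4 arrays many probes lie close to any pattern.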

How the data were processed

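The authors deposited intensities written by Agilent Feature Extraction 10.5.1.1 (per the file headers), after background subtraction and detrending and with no normalization between arrays. The authors' value table equals this signal times a constant per array. For each array, the 75th percentile of the log2 processed signal (1142, 1100.0, 977 and 1285 for NS-si, Sp1-si, NS-si → CoCl2 and Sp1-si → CoCl2) was subtracted, outlier spots were dropped, and each probe took the mean of its spots. A probe was measured in a comparison if at least 50% of its spots were well above background on each array used. Of 43376 non-control spots per array, 33081 to 34542 were well above background. A probe was called at a log2 value of 1 or more in size. No test was run, as each condition had 1 array. The SD between spots came from 264 probes with 10 spots, as the median of the 51 nearest in signal for single spots. RefSeq accessions matched 28463 of 29296 spots that carried one, giving 26222 probes a symbol. The arrays use an older build than the promoter windows, so no probe coordinates are given. All probes of the 10 genes are named, as are listed genes with a ratio of at least 1 in size, and the 3 nearest patterns. The representative of a gene is its probe with the highest mean signal. The members and lists were chosen with earlier results of these data known. Alternatives were other scalings, background correction, filters, thresholds and units of counting. On simulated data for the CoCl2 ratio in NS-si cells, 100 of 100 probes planted at a log2 size of 2 and 100 of 100 at 3 were recovered and 0 others called, among 31313. The simulated noise was far smaller than the distance of the planted sizes from the threshold, so this outcome was fixed in advance. The noise held no spread between cultures, so the simulation checks the calling step and gives no error rate for these data. Python 3.11.15, numpy 2.4.6, pandas 2.3.3, matplotlib 3.10.9, R 4.3.3 and limma 3.58.1 were used. Protein, PCR and tumour data of the study were not analysed here.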

Additional observations from a re-analysis of the deposited data

How the results depend on the processing

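The counts of probes past 1 were 3, 4, 0, 1 and 0 for CoCl2 in NS-si cells, CoCl2 in Sp1-si cells, Sp1-si to NS-si without CoCl2, the same with CoCl2, and the difference of the CoCl2 ratios. Without scaling between arrays the last pair became 4 (HIF1A at 1.17, EGLN1, EGLN2 and CITED2) and 2, and the median over all probes moved from 0.02, -0.01, -0.02, -0.06 and -0.01 to -0.21, 0.21, -0.07, 0.34 and 0.44. At a threshold of 0.5 the counts were 5, 7, 7, 9 and 4. Many of all measured probes lie near or past 0.5 too. Their quartiles were -0.31 and 0.27 in the Sp1-si ratio without CoCl2 and -0.48 and 0.33 with it. No share of all probes past the same cut is set beside the counts at 0.5 or those without scaling, so neither is a result about the genes. With 1 value per gene, as the mean over probes or the brightest probe, the CoCl2 count in Sp1-si cells was 2 and the Sp1-si count with CoCl2 was 0. The other scalings, the authors' value table, outlier spots kept, a floor of 10 and the other filters left the counts within 1.5 times. Over 8 alternatives, 345 of 560 single values moved by less than the SD between spots, 215 moved by more, and no value past 1 in size changed sign. Of smaller values, the sign turned under some alternative for 3 of 14 probes in the CoCl2 ratio of NS-si cells, 1 in that of Sp1-si cells, 0 and 1 in the Sp1-si ratios without and with CoCl2, and 5 in the difference. The ratio of EGLN3 stayed between 1.92 and 2.15 in NS-si cells and between 2.47 and 2.93 in Sp1-si cells. The normexp correction planned on mean signals was not run, as the files hold median signals, and one on medians, chosen after seeing the data, took its place. No paired analysis was possible because each condition has 1 array and no replicate number. Precision is limited by the number of arrays, and the SD between spots of the dim ARNT2 probe was 0.11 to 0.13 in the 4 ratios.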

Other observations

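Probes of 1 gene gave different answers for the interaction of CoCl2 and Sp1 siRNA beyond EGLN1. For HSP90AA1, the CoCl2 ratio was between 0.66 and 0.74 in NS-si cells by all 4 probes, but in Sp1-si cells it was -0.64, 0.75, -0.19 and 0.02. For PFKFB3, a regulator of glycolysis, the difference of the CoCl2 ratios was -0.47 by the brightest probe and 0.07, -0.15 and -1.04 by the others. For VEGFA it was 0.53 by the brightest probe and 0.01, 0.33 and -0.40 by the others. By contrast, the 3 LDHA probes gave 0.62, 0.71 and 1.21, and the 3 KDM3A probes 0.43, 0.37 and 0.47.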
